A study of Xenopus laevis with 16 samples.

Results

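Animal caps that received inducible Pax3 together with inducible Zic1 were set against untouched control caps of Xenopus laevis. The animal cap is the roof of ectoderm over the blastula; explanted alone it becomes epidermis, and it can be turned to other fates by injected factors. The groups compared hold 7 of the 16 arrays in the series, which came from 6 of its 15 biological samples. All 32539 probe sets that are not Affymetrix controls were tested. Spread and replicate effects were estimated from all 15 biological samples, in a fit of all 5 groups. The samples compared were chosen by their labels: Pax3 and Zic1 caps without cycloheximide, and control caps. Those of one biological replicate number were compared with each other.

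For Pax3 and Zic1 caps, embryos of 2 to 4 cells received constructs that the labels name Pax3-GR and Zic1-GR, whose factor dexamethasone switches on. The embryos grew at 15 °C, caps were cut at stage 9, and dexamethasone was given at stage 10.5 for 2 h at 23 °C, until siblings reached stage 11.5 to 12. There were 3 biological replicates on 4 arrays; arrays 2.1 and 2.2 carry the same biological number and count as 1 sample by their mean (SD of the difference between them 0.18 in log2 over all probe sets). Control caps, 3 biological replicates on 3 arrays at the same stage, had no injection, no dexamethasone and no cycloheximide. A change in Pax3 and Zic1 caps therefore holds the factors, the injection and the hormone, which cannot be told apart here. Values of further groups of 3 biological replicates are given below. Pax3 caps were injected with Pax3-GR alone and given dexamethasone in the same way. Some Pax3 and Zic1 caps also had cycloheximide at 0.1 mg/ml from stage 10, 30 min before dexamethasone was added to the same medium. Pax3 caps with the same cycloheximide treatment, also 3 biological replicates, entered the fit as well. The spread was estimated over all 5 groups, so it enters the SE and p-value of each change.

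The neural plate border is the strip of ectoderm between the future nervous system and the epidermis. Signals of the BMP, Wnt and FGF families pattern it, and Pax3 and Zic1 are transcription factors that act there. The border gives rise to the neural crest, migratory cells that switch on specifier genes such as snai2, foxd3 and sox9 and later form neurons, pigment cells and cartilage. Epidermis forms where BMP signalling stays high, and in Xenopus it includes ciliated, ionocyte and mucus-secreting cells.

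Values are log2 expression per probe set as deposited, so a difference of 1 is a doubling. Gene names end in .L or .S for the copies of a gene on the long and short subgenome of this tetraploid frog. A probe set "passed" when its adjusted p was under 0.05 in limma with the replicate number as a block. "Rose" and "fell" are used of probe sets that passed. Each change is given as the mean of Pax3 and Zic1 caps minus the mean of control caps, ± SE, with n = 3 in each group; values listed for samples run in the order of replicates 1, 2 and 3. The number of arrays limits the precision. Each comparison was refitted 6 times with 1 replicate of its groups left out. A gene's p-value given for a replicate left out is the highest of its 6, and other omissions may have lost the call too.

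The block and the groups in the fit decide how many calls there are. With the block and all 5 groups 1416 probe sets passed (4.35%), of which 706 were higher (2.17%) and 710 lower (2.18%) in Pax3 and Zic1 caps. Without the block 160 passed (0.492%), 94 higher (0.289%) and 66 lower (0.203%), and all 160 were among the 1416. With the block but only the groups compared 147 passed, 84 higher and 63 lower, and 140 were among the 1416. All 1416 moved in their direction in 3 of 3 replicate numbers. A fit with the block favours such probe sets, so this is no separate support for the calls. Pax3 and Zic1 caps and control caps did not overlap for 506 of the 706 and 501 of the 710; of all probe sets, 9.13% had groups that did not overlap. Leaving out Pax3 and Zic1 replicate 1 gave 2343 calls, leaving out Pax3 and Zic1 replicate 2 gave 753, and leaving out control replicate 2 or control replicate 3 gave 906 or 625.

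Rises were larger than falls. Of the 706 probe sets that rose, 401 changed by more than 1, 123 by more than 2, 36 by more than 3 and 13 by more than 4. Of the 710 that fell, 337 changed by more than 1, 39 by more than 2 and 0 by more than 3 in limma. The replicate numbers did not contribute alike. The median difference of probe sets that rose was 0.80 in replicate 1, 1.18 in replicate 2 and 1.31 in replicate 3, and that of probe sets that fell was -0.77, -0.93 and -1.14. Over all probe sets the median change was 0.0024. The SD of the differences over all probe sets was 0.38 in replicate 1, 0.48 in replicate 2 and 0.70 in replicate 3, so replicate 3 also had the widest spread.

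**Figure D1:**
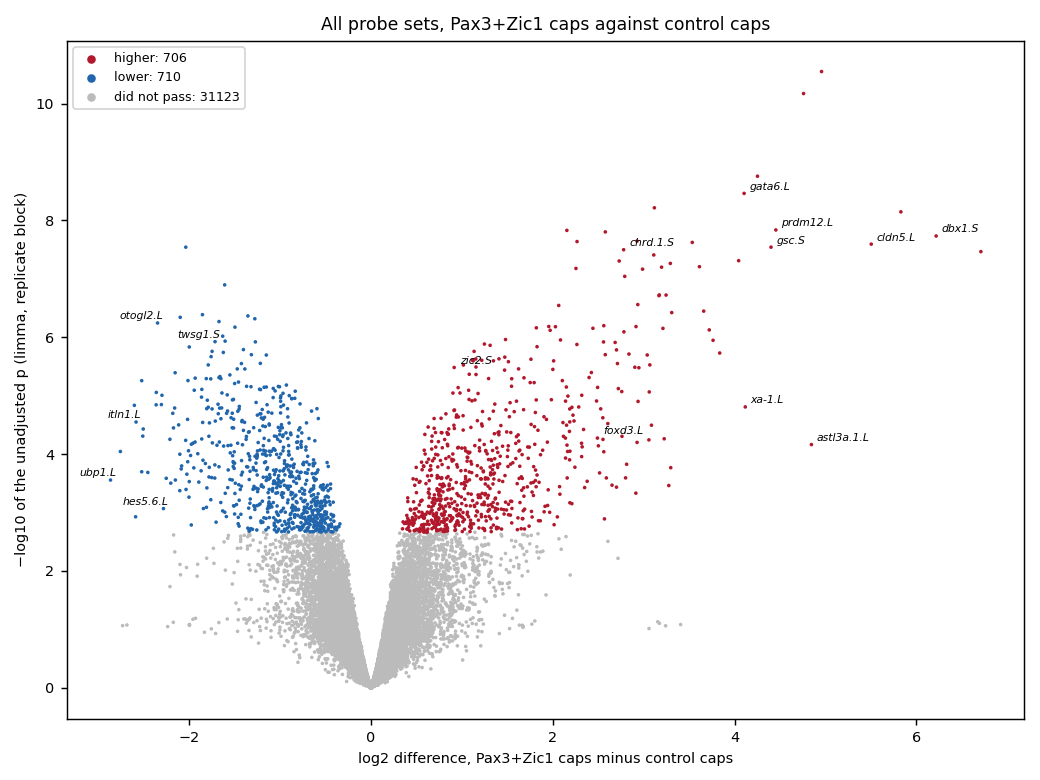
Each point is 1 of 32539 probe sets; the x axis gives the log2 difference (Pax3 and Zic1 caps minus control caps) and the y axis −log10 of the unadjusted p from limma with the replicate block. Probe sets that passed are coloured: 706 to the right, reaching past 6, and 710 to the left, of which 0 lie beyond 3.

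The caps carried ectoderm markers in both groups. For the counts of markers that follow, the background is 2.42% higher and 1.98% lower of all 11303 gene copies. Of 20 gene copies of ectoderm markers 0 were higher and 2 lower in Pax3 and Zic1 caps, and their mean log2 level was 7.11 to 7.30 in Pax3 and Zic1 caps and 7.67 to 7.96 in control caps. The epithelial adhesion gene epcam.S was at 11.57 ± 0.04 in Pax3 and Zic1 caps and 11.43 ± 0.03 in control caps (mean ± SD), and the keratin gene krt70.S at 12.07 ± 0.13 and 12.32 ± 0.20. Of the ectoderm copies epcam.S alone had a positive change. The keratin gene krt12.4.S changed by -1.70 and passed. The brighter copies krt12.4.L (-0.83, adjusted p = 0.134) and krt12.5.S (-1.22, adjusted p = 0.111) did not. The other copy that fell, krt12.2.S, was low in both groups, at 1.44 ± 0.03 in Pax3 and Zic1 caps and 2.06 ± 0.15 in control caps. The ectoderm markers grhl3.L and grhl3.S changed by -1.61 and -1.34 and did not pass (adjusted p = 0.0643 and 0.0523). The epidermal regulator tp63 was low in both: tp63.L was at 1.62 ± 0.07 in Pax3 and Zic1 caps and 1.77 ± 0.06 in control caps, tp63.S at 2.41 ± 0.12 and 3.04 ± 0.29. Of 9 copies of mesoderm markers myod1.S rose, and the mean level of the 9 was 3.99 to 5.23 in Pax3 and Zic1 caps and 3.60 to 4.87 in control caps. Of 9 copies of endoderm markers gata4.L and gata5.L rose, by 1.67 and 1.76. Their other copies did not pass, with gata4.S at -0.93 (adjusted p = 0.108) and gata5.S at 0.48 (adjusted p = 0.563). The mean level of the 9 was 3.96 to 5.26 in Pax3 and Zic1 caps and 3.52 to 4.74 in control caps. The 3 germ plasm markers did not pass, at a mean level of 3.71 to 3.77 in Pax3 and Zic1 caps and 3.48 to 4.13 in control caps. For mesoderm, endoderm and germ plasm these ranges overlap between the groups. Within each replicate number the mesoderm and endoderm means were higher in Pax3 and Zic1 caps than in control caps. The germ plasm mean was lower in replicates 1 and 2 and higher in replicate 3. These differences of means were not tested.

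Probe sets of both injected genes rose, though not all of them. For pax3.S a probe set measured 6.04, 7.42 and 7.24 in Pax3 and Zic1 caps and 1.49, 2.17 and 2.17 in control caps, a rise of 4.96 ± 0.20 (adjusted p = 9.2e-07), and a second gave 4.76 ± 0.21 (adjusted p = 1.1e-06). A pax3.L probe set rose by 4.25 ± 0.25 (adjusted p = 1.9e-05). These groups lie far apart. The other 4 pax3.L probe sets did not pass, with changes from -0.92 to 0.12; 2 of them were at 10.07 and 10.62 in control caps already. For zic1.S a probe set measured 8.95, 9.05 and 9.87 in Pax3 and Zic1 caps and 6.74, 6.98 and 7.69 in control caps, a rise of 2.16 ± 0.15 (adjusted p = 5.7e-05), while another changed by 0.35 ± 0.24 (adjusted p = 0.487). Injected and endogenous transcripts cannot be told apart by these values, since the sources used here do not say which region of either gene was injected. The nuclear receptor gene nr3c1, the natural glucocorticoid receptor of the frog, did not pass in either copy (-0.07 and 0.14).

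The largest rise of a named gene was that of dbx1.S, a homeobox gene of interneuron progenitors in the neural tube. It measured 8.63, 9.01 and 8.83 in Pax3 and Zic1 caps and 2.58, 2.71 and 2.52 in control caps, a rise of 6.22 ± 0.45 (adjusted p = 5.8e-05, 0.000777 without the block). All 3 Pax3 and Zic1 samples were more than 5 above every control sample. The tight junction gene cldn5.L measured 6.52, 8.26 and 8.60 in Pax3 and Zic1 caps and 1.98, 2.60 and 2.29 in control caps, a rise of 5.50 ± 0.41 (adjusted p = 5.8e-05, 0.00104 without the block). The groups did not overlap, and replicate 1 was the lowest of the Pax3 and Zic1 samples. The zinc finger gene prdm12.L, which acts in sensory neurons and spinal interneurons of vertebrates, measured 6.25, 7.60 and 7.24 in Pax3 and Zic1 caps and 2.53, 2.74 and 2.45 in control caps (change 4.45 ± 0.32, adjusted p = 5.7e-05).

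The homeobox gene goosecoid, a marker of the organizer, rose in each copy. gsc.S measured 6.50, 8.73 and 8.34 in Pax3 and Zic1 caps and 3.41, 3.86 and 3.10 in control caps, a rise of 4.40 ± 0.33 (adjusted p = 5.8e-05). gsc.L measured 4.20, 7.01 and 6.50 in Pax3 and Zic1 caps and 2.01, 2.23 and 2.19 in control caps, a rise of 3.76 ± 0.40 (adjusted p = 0.000653). Groups did not overlap in either copy, and replicate 1 was again the lowest Pax3 and Zic1 sample. gata6.L, a zinc finger gene of endoderm and heart, rose by 4.10 ± 0.26 (adjusted p = 2.8e-05), and irx3.L, an Iroquois gene of the neural plate, by 3.84 ± 0.43 (adjusted p = 0.000843). astl3a.1.L, which encodes an astacin-like protease, measured 4.20, 7.78 and 7.77 in Pax3 and Zic1 caps and 1.73, 1.51 and 1.97 in control caps, a rise of 4.84 ± 0.80 (adjusted p = 0.00603, 0.0865 without the block). Its replicate 1 lay more than 3 below the other Pax3 and Zic1 samples and still above all control samples. Other rises among the largest were those of xa-1.L (4.12 ± 0.58), the arrestin-domain gene arrdc2.S (4.04 ± 0.32) and the forkhead gene foxd1.L (3.30 ± 0.60); without the block the adjusted p of xa-1.L was 0.0516 and that of foxd1.L 0.264, and without control replicate 3 that of foxd1.L was 0.0645.

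**Figure D2:**
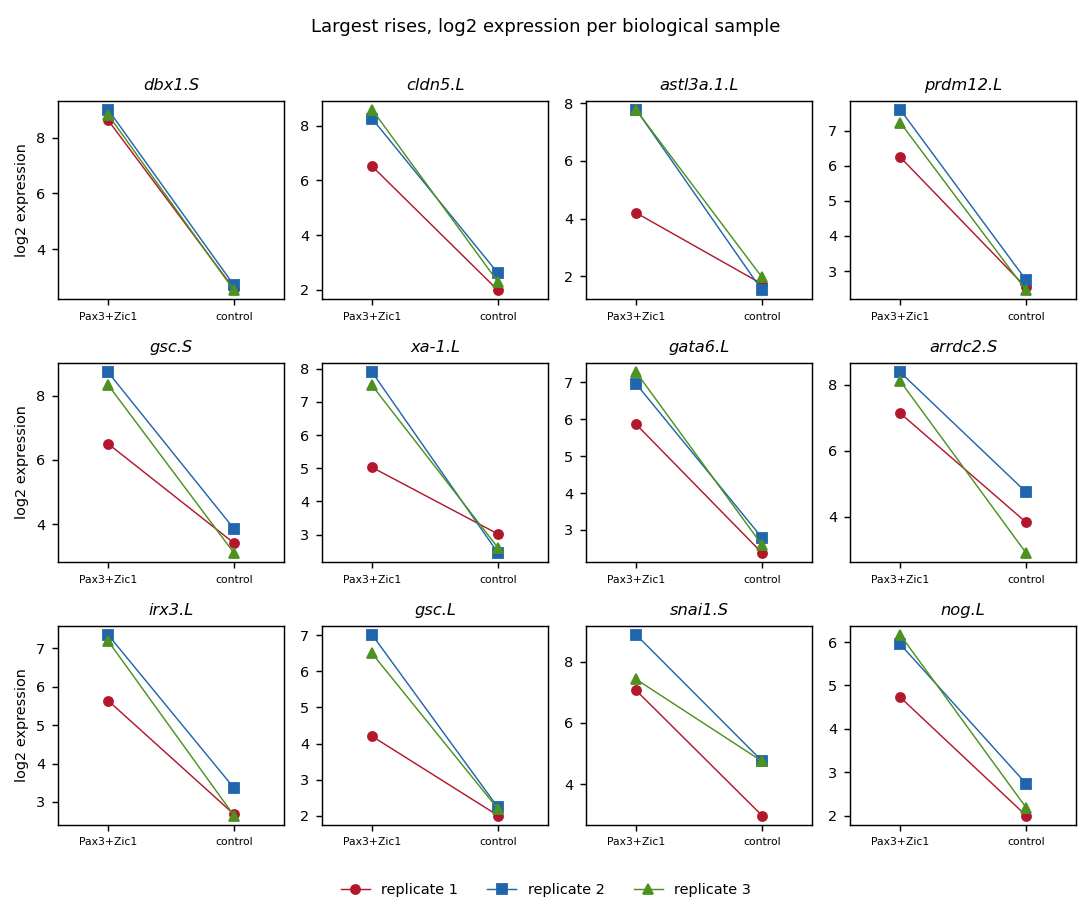
The 12 named genes with the largest rises, pax3 left out; each panel gives log2 expression (y axis) in Pax3 and Zic1 caps and in control caps, with 1 symbol per biological replicate and a line joining samples of one number. In dbx1.S the 3 Pax3 and Zic1 samples lie between 8.63 and 9.01; in cldn5.L, gsc.L, astl3a.1.L and xa-1.L replicate 1 is the lowest of them.

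Neural crest specifier genes were tested as a list of 43 gene copies, each by its brightest probe set. In Pax3 and Zic1 caps 13 were higher and 4 lower (30.2% and 9.3%), against 2.42% higher and 1.98% lower of all 11303 gene copies (4.41% in either direction), and the median change was 0.18 against 0.02. Without the block 2 were higher and 0 lower, and leaving out each replicate in turn gave 8 to 14 higher and 1 to 6 lower (10 and 2 without Pax3 and Zic1 replicate 3). Of all 11303 gene copies 44 were higher and 20 lower without the block. With a replicate left out 154 to 503 of them were higher and 90 to 344 lower. These counts and shares of all gene copies are the background for every list below. The rises were in early regulators and migration genes: snai1.S, the protocadherin gene pcdh8.L, foxc1.L, tfap2b.L, both foxd3 copies, the PDGF receptor gene pdgfra.L, snai2.L, sox8.L, sox9.L and id2.L among them.

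snai1.S, a zinc finger repressor that drives epithelial cells to become migratory, measured 7.06, 8.87 and 7.42 in Pax3 and Zic1 caps and 2.99, 4.77 and 4.75 in control caps, a rise of 3.61 ± 0.29 (adjusted p = 8.6e-05, 0.0957 without the block). The groups did not overlap, and replicate 1 was the lowest sample in each. Its relative snai2.L, the classic crest marker, measured 2.76, 3.62 and 2.21 in Pax3 and Zic1 caps and 1.43, 1.22 and 1.34 in control caps, a rise of 1.54 ± 0.33 (adjusted p = 0.0238, 0.55 without the block). These snai2.L levels are low in both groups. The median over all probe sets was 4.82 to 4.91 in these samples, and the lowest value of all arrays was 0.80. foxd3.L, a forkhead repressor of crest and pluripotent cells, measured 4.37, 4.27 and 5.41 in Pax3 and Zic1 caps and 1.86, 2.45 and 2.25 in control caps, a rise of 2.49 ± 0.40 (adjusted p = 0.00521, 0.139 without the block). In foxd3.L the Pax3 and Zic1 samples all lay above the control samples. foxd3.S rose by 1.97 ± 0.45 (adjusted p = 0.031).

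tfap2b.L, an AP-2 factor, measured 5.17, 6.14 and 5.93 in Pax3 and Zic1 caps and 2.78, 3.16 and 3.17 in control caps, a rise of 2.71 ± 0.32 (adjusted p = 0.00101, 0.068 without the block). pcdh8.L, a protocadherin of cell movement in the gastrula, rose by 3.20 ± 0.26 (adjusted p = 8.6e-05) and foxc1.L, a forkhead gene of crest and mesoderm, by 2.84 ± 0.32 (adjusted p = 0.000854); both also passed without the block (adjusted p = 0.00104 and 0.0106). Of the SoxE genes, which hold crest identity, sox8.L rose by 1.42 ± 0.25 (adjusted p = 0.0077) and sox9.L by 1.18 ± 0.28 (adjusted p = 0.0375), with groups that overlap, whereas sox9.S changed by 0.38 ± 0.38 (adjusted p = 0.654). The third of the family, sox10.L, was at 1.57 ± 0.11 in Pax3 and Zic1 caps and 1.81 ± 0.10 in control caps and did not pass (adjusted p = 0.347). Nor did snai2.S (0.32), twist1.L (0.02), ets1.L (0.29) or ets1.S (0.55), other genes of the crest programme. The calls of foxd3.S and sox9.L were lost without control replicate 3 (adjusted p = 0.143 and 0.155), that of snai2.L without Pax3 and Zic1 replicate 2 (0.0793) and that of pdgfra.L (1.66 ± 0.34) without control replicate 3 (0.1). Those of foxd3.S and sox9.L each held in 1 of 6 fits with a replicate left out, that of snai2.L in 4 and that of pdgfra.L in 3.

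The 4 crest list members that fell were cxcr4.L, the chemokine receptor of migrating cells, by 0.68 (adjusted p = 0.0284), kit.S by 1.04, myb.S by 1.08 and id2.S by 1.25. The call of cxcr4.L was lost without control replicate 3 (adjusted p = 0.143), as was that of myb.S (0.0982), and that of kit.S without Pax3 and Zic1 replicate 2 (0.0897). With a replicate left out these calls held in 1, 2 and 3 of 6 fits, in that order. id2 encodes an inhibitor of bHLH factors, and its copies went opposite ways. id2.L measured 10.15, 10.68 and 10.42 in Pax3 and Zic1 caps and 9.23, 9.83 and 9.31 in control caps, a rise of 0.96 ± 0.12 (adjusted p = 0.00174). id2.S measured 7.62, 8.24 and 6.93 in Pax3 and Zic1 caps and 8.46, 9.25 and 8.84 in control caps, a fall of 1.25 ± 0.22 (adjusted p = 0.00736). Groups did not overlap in either copy; without the block neither passed (adjusted p = 0.291 and 0.626).

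Neural plate border genes, a list of 34 copies, had 7 higher and 1 lower (median 0.05; 3 and 0 without the block; 4 to 8 and 1 to 5 with a replicate left out). One of the 7 is pax3.S itself. Copies of zic2 and zic5 rose: zic2.S measured 9.02, 8.79 and 8.76 in Pax3 and Zic1 caps and 8.02, 7.89 and 7.92 in control caps, a rise of 0.92 ± 0.11 (adjusted p = 0.00111, 0.0106 without the block). zic2.L rose by 0.84 ± 0.14 (adjusted p = 0.00614) and zic5.S by 1.81 ± 0.35 (adjusted p = 0.0137; 0.0716 without control replicate 3). The zic2.S groups did not overlap. The zic5.S call held in 2 of 6 fits with a replicate left out. Other border regulators did not pass: the homeobox genes msx1.L (0.04 ± 0.30), msx1.S (-0.64 ± 0.28) and msx2.L (0.91 ± 0.36), the AP-2 gene tfap2a (-0.46 and -0.47 in its copies), hes4.L (-0.42 ± 0.21) and hes4.S (0.07 ± 0.27). The dlx genes of the non-neural side did not pass, with dlx3.L at -1.18 ± 0.30 (adjusted p = 0.0502) and dlx3.S at -0.95 ± 0.26 (adjusted p = 0.069), and dlx5.L was at -0.06 ± 0.22. irx1.S, an Iroquois gene, fell by 0.63 ± 0.11 (adjusted p = 0.00846) where irx3.L rose.

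Among genes of the neural plate and its progenitors 7 of 36 were higher and 1 was lower (median 0.28; 3 and 0 without the block; 5 to 9 and 0 to 1 with a replicate left out). Beside dbx1.S and prdm12.L these included nkx6-2.L, a homeobox gene of ventral progenitors, which measured 4.60, 5.26 and 5.20 in Pax3 and Zic1 caps and 2.79, 2.47 and 2.52 in control caps (change 2.42 ± 0.30, adjusted p = 0.00126). sox1.S, a SoxB1 gene of neural progenitors, rose by 1.98 ± 0.27 (adjusted p = 0.00226). Its relatives sox2 and sox3 did not pass: sox2.L was at 7.48 ± 0.29 in Pax3 and Zic1 caps and 7.25 ± 0.52 in control caps (change 0.23, adjusted p = 0.547), sox3.L changed by 0.00 ± 0.26 and sox3.S by 0.72 ± 0.23 (adjusted p = 0.123). The adhesion gene ncam1.S fell by 0.49 ± 0.11 (adjusted p = 0.031, and 0.145 without control replicate 3). It was low in both groups, at 2.66 ± 0.26 in Pax3 and Zic1 caps and 3.15 ± 0.19 in control caps. Its call held in 1 of 6 fits with a replicate left out.

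Anterior genes of the forebrain and eye field had 5 of 24 higher and 1 lower (median 0.05; 1 and 0 without the block; 1 to 7 and 0 to 3 with a replicate left out, and 1 and 2 without Pax3 and Zic1 replicate 3). otx1.L measured 8.23, 8.79 and 9.21 in Pax3 and Zic1 caps and 6.60, 6.46 and 7.71 in control caps, a rise of 1.82 ± 0.19 (adjusted p = 0.000469, 0.037 without the block), with no overlap. nr2e1.S rose by 1.77 ± 0.40, the eye field gene rax.S by 1.74 ± 0.43 and fezf2.L by 1.55 ± 0.35, and these 3 calls were lost when 1 control replicate was left out (adjusted p = 0.154 for nr2e1.S without replicate 3, and 0.186 for rax.S and 0.127 for fezf2.L without replicate 2). They held in 1, 2 and 2 of 6 fits with a replicate left out. tbx2.L, a T-box gene of the eye field and of skin, fell by 2.15 ± 0.42 (adjusted p = 0.0135; 0.0783 without control replicate 3) while tbx2.S was at 0.26 ± 0.27. Genes of neuronal differentiation were split, with 3 of 39 higher and 3 lower (median 0.11; 0 and 0 without the block). nrn1.S (2.08 ± 0.42), ebf2.S (1.81 ± 0.26) and celf3.S (0.95 ± 0.23) rose; the synaptic vesicle gene syt1.L (-1.64 ± 0.22), myt1.S (-1.51 ± 0.27) and isl1.S (-0.67 ± 0.17) fell. Of these 6, ebf2.S and syt1.L passed whichever replicate was left out. The others reached adjusted p = 0.0773 (nrn1.S, without Pax3 and Zic1 replicate 2), 0.139 (celf3.S) and 0.209 (isl1.S) without control replicate 2, and 0.0514 (myt1.S) without control replicate 3. The celf3.S call held in 1 of 6 such fits, those of nrn1.S and isl1.S in 2 each and that of myt1.S in 4. Placode genes had 2 of 24 higher, the lens gene foxe3.L (1.48) and tbx1.L (1.30), and 1 lower, irx1.S (median -0.05). Without control replicate 2 foxe3.L and tbx1.L were at adjusted p = 0.113 and 0.132 in limma. Their calls each held in 2 of 6 fits with a replicate left out.

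Organizer genes and secreted BMP antagonists moved in both directions: 9 of 35 copies were higher and 5 lower (median 0.47; 5 and 1 without the block; 6 to 11 and 2 to 7 with a replicate left out). Genes of secreted antagonists were among the rises. nog.L, which encodes noggin, measured 4.73, 5.95 and 6.17 in Pax3 and Zic1 caps and 2.00, 2.74 and 2.18 in control caps, a rise of 3.31 ± 0.32 (adjusted p = 0.000352, 0.021 without the block). chrd.1.S, which encodes chordin, measured 6.18, 6.43 and 6.77 in Pax3 and Zic1 caps and 3.42, 3.00 and 4.61 in control caps, a rise of 2.78 ± 0.21 (adjusted p = 6.1e-05, 0.0189 without the block). Neither gene's groups overlapped. The Wnt antagonist gene dkk1.S rose by 2.70 ± 0.30 (adjusted p = 0.000789, 0.0825 without the block).

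Genes of BMP modulators of the opposite, ventral side were among the falls. szl.L and szl.S encode sizzled, a feedback inhibitor that BMP signalling itself induces. szl.L measured 7.93, 7.24 and 6.04 in Pax3 and Zic1 caps and 8.89, 9.27 and 9.36 in control caps, a fall of 2.10 ± 0.43 (adjusted p = 0.0176), and szl.S fell by 2.08 ± 0.38 (adjusted p = 0.00976). twsg1.S, which encodes twisted gastrulation, measured 8.32, 7.80 and 7.31 in Pax3 and Zic1 caps and 9.60, 9.35 and 9.62 in control caps, a fall of 1.71 ± 0.18 (adjusted p = 0.000653, 0.00465 without the block). The groups did not overlap in these genes, and Pax3 and Zic1 replicate 3 was the lowest sample in each. twsg1.L fell by 1.29 ± 0.20 (adjusted p = 0.00407) and bambi.L, a decoy receptor gene, by 1.28 ± 0.28 (adjusted p = 0.027). Without control replicate 3 szl.L, szl.S and bambi.L did not pass (adjusted p = 0.102, 0.0552 and 0.142). Their calls held in 2, 4 and 2 of 6 fits with a replicate left out. In the list of BMP ligands, receptors and targets 9 of 50 copies were lower and 3 higher (median -0.19; 0 and 1 without the block; 2 to 12 and 2 to 3 with a replicate left out, and 4 and 3 without Pax3 and Zic1 replicate 3). Its members share szl, bambi.L and id2 with other lists. Both bmp4 copies, encoding the ligand itself, fell (-0.95 and -1.03), as did tll1.S, a tolloid-like protease gene, by 1.35 ± 0.25 (adjusted p = 0.00991). Unlike that of tll1.S, the bmp4 calls were not followed gene by gene with a replicate left out. The rises there were inhbb.L, the activin B subunit gene, by 3.11 ± 0.24 (adjusted p = 6.7e-05), evx1.L (2.35 ± 0.47; adjusted p = 0.0652 without control replicate 2) and id2.L.

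FGF pathway genes had 7 of 32 copies higher and 2 lower (median 0.20; 1 and 1 without the block; 5 to 7 and 1 to 2 with a replicate left out). The ligand gene fgf8.L measured 7.08, 7.60 and 8.23 in Pax3 and Zic1 caps and 5.30, 5.28 and 5.87 in control caps, a rise of 2.15 ± 0.33 (adjusted p = 0.00386, 0.0353 without the block). flrt3.L and flrt3.S, which encode a membrane partner of FGF receptors, rose by 2.76 ± 0.36 and 2.16 ± 0.41, and the feedback inhibitor genes dusp5.S and spry2.L by 1.36 ± 0.21 and 1.38 ± 0.34. The receptor gene fgfr4.S fell, at 9.16, 8.99 and 8.05 in Pax3 and Zic1 caps and 10.01, 10.16 and 10.27 in control caps (change -1.42 ± 0.21, adjusted p = 0.00348, 0.0435 without the block). fgfr4.L fell by 0.59 ± 0.12. Calls lost with 1 sample less were those of flrt3.S (adjusted p = 0.0645 without control replicate 2), spry2.L (0.211 without control replicate 3) and fgfr4.L (0.114 without control replicate 3). They held in 4, 1 and 2 of 6 such fits.

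In the Wnt pathway 8 of 73 copies were higher and 1 was lower (median 0.09; 0 and 1 without the block; 4 to 10 and 0 to 2 with a replicate left out). The ligand gene wnt8a.L, whose product signals in ventrolateral mesoderm and helps to induce crest, measured 5.86, 6.24 and 7.82 in Pax3 and Zic1 caps and 2.64, 3.76 and 4.78 in control caps (change 2.91 ± 0.60, adjusted p = 0.019). wnt11b.L, a ligand of cell movement, measured 6.82, 8.34 and 9.02 in Pax3 and Zic1 caps and 5.43, 6.85 and 6.32 in control caps (change 1.87 ± 0.32, adjusted p = 0.00745). The wnt8a.L groups did not overlap; those of wnt11b.L did, by a small margin between Pax3 and Zic1 replicate 1 and control replicate 2. dvl3.L, which encodes a Dishevelled protein that relays the signal, fell by 0.97 ± 0.18 (adjusted p = 0.0108, 0.0478 without the block). The wnt8a.L call held in 2 of 6 fits with a replicate left out, with adjusted p = 0.0882 without control replicate 1, and without control replicate 3 dvl3.L was at 0.0679.

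Of 27 retinoic acid genes 5 were higher and 2 lower (median 0.15; 1 and 1 without the block; 2 to 7 and 1 to 3 with a replicate left out). aldh1a2.L, the enzyme gene that makes retinoic acid, measured 6.42, 7.06 and 6.97 in Pax3 and Zic1 caps and 5.28, 5.59 and 4.55 in control caps, a rise of 1.68 ± 0.24 (adjusted p = 0.00275, 0.02 without the block). dhrs3.L, which encodes a retinaldehyde reductase, rose by 1.62 ± 0.26 (adjusted p = 0.00479) and cyp26a1.L, which encodes the enzyme that degrades retinoic acid, by 1.62 ± 0.38 (adjusted p = 0.0354; 0.151 without control replicate 2). The receptor gene rarg.S fell by 0.71 ± 0.11 (adjusted p = 0.00367). With a replicate left out the cyp26a1.L call held in 2 of 6 fits.

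Notch genes had 3 of 36 higher and 5 lower (median -0.14; 0 and 2 without the block; 1 to 3 and 3 to 8 with a replicate left out). The Hairy and Enhancer of split targets of the hes5 group fell. hes5.7.L measured 4.33, 3.95 and 3.72 in Pax3 and Zic1 caps and 6.41, 5.66 and 6.56 in control caps, a fall of 2.21 ± 0.36 (adjusted p = 0.00534, 0.0195 without the block), and hes5.2.L fell by 2.01 ± 0.34 (adjusted p = 0.00686). hes5.6.L (-2.28 ± 0.51) and hes5.1.S (-1.50 ± 0.34) fell too, with calls lost without control replicate 3 (adjusted p = 0.146 and 0.16). Against these, hes7.1.L, a target of the same family, rose by 1.69 ± 0.38 (adjusted p = 0.0289, and 0.126 without control replicate 3). The ligand gene jag1.L rose by 1.21 ± 0.23 (adjusted p = 0.0132, and 0.0746 without control replicate 3) and psen2.S, a presenilin gene of the protease that cuts Notch, by 1.84 ± 0.28. The hes7.1.L call held in 1 of 6 fits with a replicate left out and that of jag1.L in 3. Those of hes5.6.L and hes5.1.S held in 2 each.

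Some genes of the other germ layers rose. Of 95 mesoderm and muscle copies 8 were higher and 2 lower (median 0.06; 1 and 0 without the block; 3 to 12 and 1 to 2 with a replicate left out, and 3 and 1 without Pax3 and Zic1 replicate 3). myod1.S, the master regulator gene of muscle, measured 5.04, 6.63 and 7.23 in Pax3 and Zic1 caps and 3.11, 3.02 and 3.60 in control caps, a rise of 3.06 ± 0.49 (adjusted p = 0.00541, 0.102 without the block), with no overlap. myod1.L changed by 0.56 ± 0.48. Of muscle structure genes, tnni2.S, a troponin gene, fell by 1.78 ± 0.28 (adjusted p = 0.00494) and the cardiac actin gene actc1.L was at 2.52 ± 0.17 in Pax3 and Zic1 caps and 2.74 ± 0.58 in control caps. The early mesoderm gene tbxt varied more between replicates than between groups, at 2.91, 3.02 and 5.36 in Pax3 and Zic1 caps and 3.16, 4.83 and 7.01 in control caps for tbxt.L (change -1.24 ± 0.85, adjusted p = 0.49).

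Of 42 endoderm copies 11 were higher and 1 was lower (median 0.14; 2 and 0 without the block; 6 to 9 and 0 to 1 with a replicate left out). gata6.L measured 5.86, 6.95 and 7.27 in Pax3 and Zic1 caps and 2.38, 2.79 and 2.60 in control caps. gata6.S measured 5.42, 6.81 and 6.96 in Pax3 and Zic1 caps and 2.65, 3.58 and 3.22 in control caps, a rise of 3.25 ± 0.29 (adjusted p = 0.000204, 0.0271 without the block). Neither copy's groups overlapped. foxa1.L, a pioneer factor gene that Xenopus also uses in mucus-secreting skin cells, rose by 2.56 ± 0.28 (adjusted p = 0.000653) and foxa1.S by 1.51 ± 0.25 (adjusted p = 0.0068). sox17a, the endoderm determinant, did not pass, at 0.69 ± 0.26 for sox17a.L and 1.05 ± 0.47 for sox17a.S. The chemokine gene cxcl12.L fell by 0.84 ± 0.19 (adjusted p = 0.0333; 0.124 without Pax3 and Zic1 replicate 2). Some of these genes are on several lists: of 1189 copies on any list 131 are on more than 1.

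Cell contact and guidance genes changed in both directions as well. Eph receptors, ephrins and guidance genes had 13 of 43 copies higher and 3 lower (median 0.13; 4 and 0 without the block; 8 to 14 and 0 to 5 with a replicate left out). efnb1.L rose by 1.22 ± 0.14 (adjusted p = 0.00095) and efnb2.L by 1.08 ± 0.21 (adjusted p = 0.0135; 0.0821 without control replicate 3). The ephrin genes efnb3.L (-0.81) and efna4.L (-0.83) and the receptor gene ephb3.L (-1.02) fell instead, and each lost its call when 1 sample was left out (adjusted p = 0.0691 and 0.0889 for efnb3.L and ephb3.L without control replicate 3, and 0.119 for efna4.L without Pax3 and Zic1 replicate 2). In the list of cadherins, claudins and tight junctions 3 of 46 copies were higher and 3 lower (median 0.01; 3 and 0 without the block). The rises, cldn5.L, cldn5.S (2.11 ± 0.32) and pcdh8.L, were larger than the falls of cldn4.L (-0.47), tjp3.L (-0.53) and cldn18.L (-0.62), which are junction genes of epithelia. Without control replicate 3 these 3 falls were at adjusted p = 0.0589, 0.117 and 0.149. Their calls held in 5, 1 and 1 of 6 fits with a replicate left out. Motility, matrix and protease genes had 6 of 107 higher and 2 lower (5.61% and 1.87%, against 2.42% and 1.98% of all gene copies). Their median was 0.06, and 0 and 0 passed without the block. Among the rises were glipr2.S at 2.73 ± 0.22 and the collagen gene col1a2.L at 1.63 ± 0.26.

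Some epidermal genes fell. Of 58 copies of keratins, desmosome genes and epidermal regulators 9 were lower, 0 higher and 49 did not pass in limma (median -0.26; 2 and 0 without the block; 4 to 17 and 0 to 1 with a replicate left out). The keratin gene krt12.4.S measured 8.02, 9.31 and 8.03 in Pax3 and Zic1 caps and 9.75, 10.50 and 10.21 in control caps, a fall of 1.70 ± 0.41 (adjusted p = 0.0393; 0.192 without control replicate 3). dsp.L, which encodes the desmosome linker desmoplakin, measured 4.85, 4.43 and 5.26 in Pax3 and Zic1 caps and 6.02, 5.90 and 6.82 in control caps, a fall of 1.40 ± 0.22 (adjusted p = 0.00434, 0.21 without the block). The groups did not overlap in either gene. The krt12.4.S call held in 2 of 6 fits with a replicate left out. klf2.S measured 7.33, 6.75 and 4.30 in Pax3 and Zic1 caps and 8.38, 8.31 and 8.29 in control caps (change -2.20 ± 0.43, adjusted p = 0.0147; 0.0745 without control replicate 3), so that replicate 3 carried much of its fall. In whole caps, fewer cells of a type and less RNA per cell cannot be told apart.

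Genes of specialised epidermal cell types were among the largest falls. Of 29 copies on that list 8 were lower and 3 higher (median -0.17; 1 and 0 without the block; 2 to 8 and 3 to 3 with a replicate left out, and 2 and 3 without Pax3 and Zic1 replicate 3). itln1.L, an intelectin gene of mucus-secreting cells, measured 3.55, 6.16 and 6.41 in Pax3 and Zic1 caps and 6.34, 8.42 and 9.10 in control caps, a fall of 2.58 ± 0.39 (adjusted p = 0.00361, 0.525 without the block). Its groups overlap because replicate 1 is low in both, while each pair fell by more than 2. ubp1.L, a gene of the Grainyhead family, measured 3.77, 3.97 and 3.42 in Pax3 and Zic1 caps and 5.26, 6.95 and 7.54 in control caps (change -2.86 ± 0.55, adjusted p = 0.0135; 0.078 without control replicate 3). mcidas.S and foxj1.S, which encode regulators of multiciliated cells, fell by 2.03 ± 0.41 and 1.84 ± 0.41 (adjusted p = 0.0957 and 0.13 without control replicate 3). The mcidas.S and foxj1.S calls each held in 2 of 6 fits with a replicate left out. The rises on the list were both foxa1 copies and pfkfb3.S (0.70 ± 0.12).

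Further large falls were seen outside that list. otogl2.L, an otogelin-like gene, measured 3.66, 4.23 and 4.98 in Pax3 and Zic1 caps and 5.93, 6.89 and 7.09 in control caps, a fall of 2.35 ± 0.24 (adjusted p = 0.000453, 0.047 without the block). slc26a4l.L, an anion exchanger gene, measured 2.47, 4.03 and 4.06 in Pax3 and Zic1 caps and 4.89, 6.30 and 7.17 in control caps (change -2.60 ± 0.36, adjusted p = 0.00254, 0.141 without the block). The amino acid transporter gene slc38a2.L measured 5.24, 5.16 and 4.44 in Pax3 and Zic1 caps and 7.36, 7.57 and 6.99 in control caps (change -2.36 ± 0.31, adjusted p = 0.00194, 0.0254 without the block). None of these 3 had overlapping groups. hs3st1.L, a heparan sulfate sulfotransferase gene, fell by 2.18 ± 0.31 (adjusted p = 0.00294) and hs3st1.S did not pass (-0.09 ± 0.33). tmem72.L fell by 2.10 ± 0.36 (adjusted p = 0.00736). Of 9 copies on the cement and hatching gland list 3 were lower, 1 was higher and 5 did not pass (median -1.05; 1 lower and 0 higher without the block). ag1.L measured 8.32, 8.23 and 7.08 in Pax3 and Zic1 caps and 9.81, 9.61 and 9.79 in control caps, a fall of 1.86 ± 0.25 (adjusted p = 0.00216, 0.01 without the block); ag1.S fell by 1.60 ± 0.17 and agr2.S, a disulfide isomerase gene of secretory cells, by 2.36 ± 0.33. agr2.L did not pass, with changes from -0.4856 to 1.0935 when a replicate was left out. The list member that rose was xa-1.L.

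**Figure D3:**
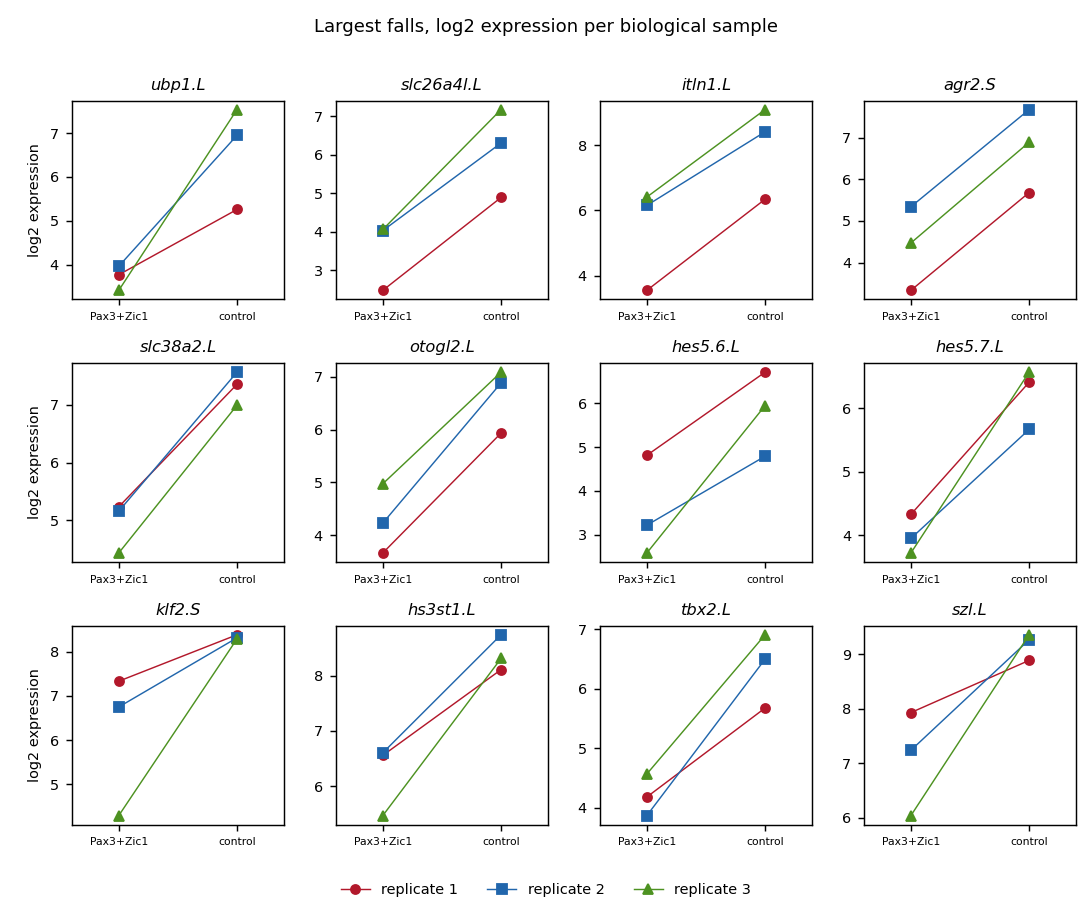
The 12 named genes with the largest falls, drawn like the rises: log2 expression (y axis) in Pax3 and Zic1 caps and control caps, 1 symbol per biological replicate, lines joining samples of one number. In itln1.L and hes5.6.L the groups overlap although each line goes the same way; in klf2.S replicate 3 is the lowest of the Pax3 and Zic1 samples at 4.30.

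Lists for hormone, stress and growth responses differed in their share of calls. Of 51 glucocorticoid receptor target copies, which dexamethasone could reach through a natural receptor, 7 were higher and 3 lower (13.7% and 5.88%, against 2.42% and 1.98% of all gene copies; median 0.12; 1 and 1 without the block; 2 to 9 and 1 to 2 with a replicate left out). arrdc2.S measured 7.14, 8.38 and 8.11 in Pax3 and Zic1 caps and 3.83, 4.75 and 2.91 in control caps (change 4.04, adjusted p = 7.7e-05), with no overlap. arrdc2.L did not pass, with changes from -0.181 to 0.4212 when a replicate was left out. cebpb.L (2.65 ± 0.53) and cebpd.L (2.23 ± 0.33) rose, whereas dusp1.L (-1.65 ± 0.21), zfp36.L (-0.86 ± 0.21) and arrdc3.S (-1.04 ± 0.26) fell. The call was lost without control replicate 3 for cebpb.L and arrdc3.S (adjusted p = 0.065 and 0.226) and without control replicate 1 for zfp36.L (0.151). It held in 3, 1 and 1 of 6 such fits for cebpb.L, arrdc3.S and zfp36.L. In Pax3 caps, which had dexamethasone too, 2 of the 51 were higher and 3 lower than in control caps. For all 11303 gene copies these counts were 114 and 156. Each is a smaller share of all gene copies than the list's count is of the 51. As no caps had dexamethasone without the factors, the hormone's part in these changes was not tested. Immediate early genes had 3 of 34 copies higher and 4 lower (8.82% and 11.8%; 0 and 1 without the block; 1 to 4 and 1 to 4 with a replicate left out). Pluripotency genes had 4 of 32 higher and 1 lower (12.5% and 3.12%; 0 and 0 in limma without the block; 1 to 5 and 0 to 3 with a replicate left out). p53 and apoptosis genes had 2 of 40 higher and 1 lower (5% and 2.5%). Without the block 1 and 0 of them passed, and with a replicate left out 1 to 2 and 0 to 2. Cell cycle genes had 2 of 89 higher and 0 lower in limma (2.25% and 0%), so their share higher is near the 2.42% of all gene copies. Without the block 0 and 0 of them passed, and with a replicate left out 1 to 2 and 0 to 1. Of 88 ribosomal protein copies, 57 copies of the unfolded protein and heat shock response and 18 germ plasm copies 0 passed in limma, with medians of 0.02, -0.01 and -0.02. The check list of housekeeping genes had 1 of 29 higher (3.45%), the tubulin gene tubb4b.S (1.12 ± 0.13). Of 25 Hox copies 1 rose (4%), hoxb7.S (0.75 ± 0.17, with adjusted p = 0.127 without control replicate 2). Its level was low in both groups, at 3.08 ± 0.45 in Pax3 and Zic1 caps and 2.33 ± 0.07 in control caps (mean ± SD).

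**Figure D4:**
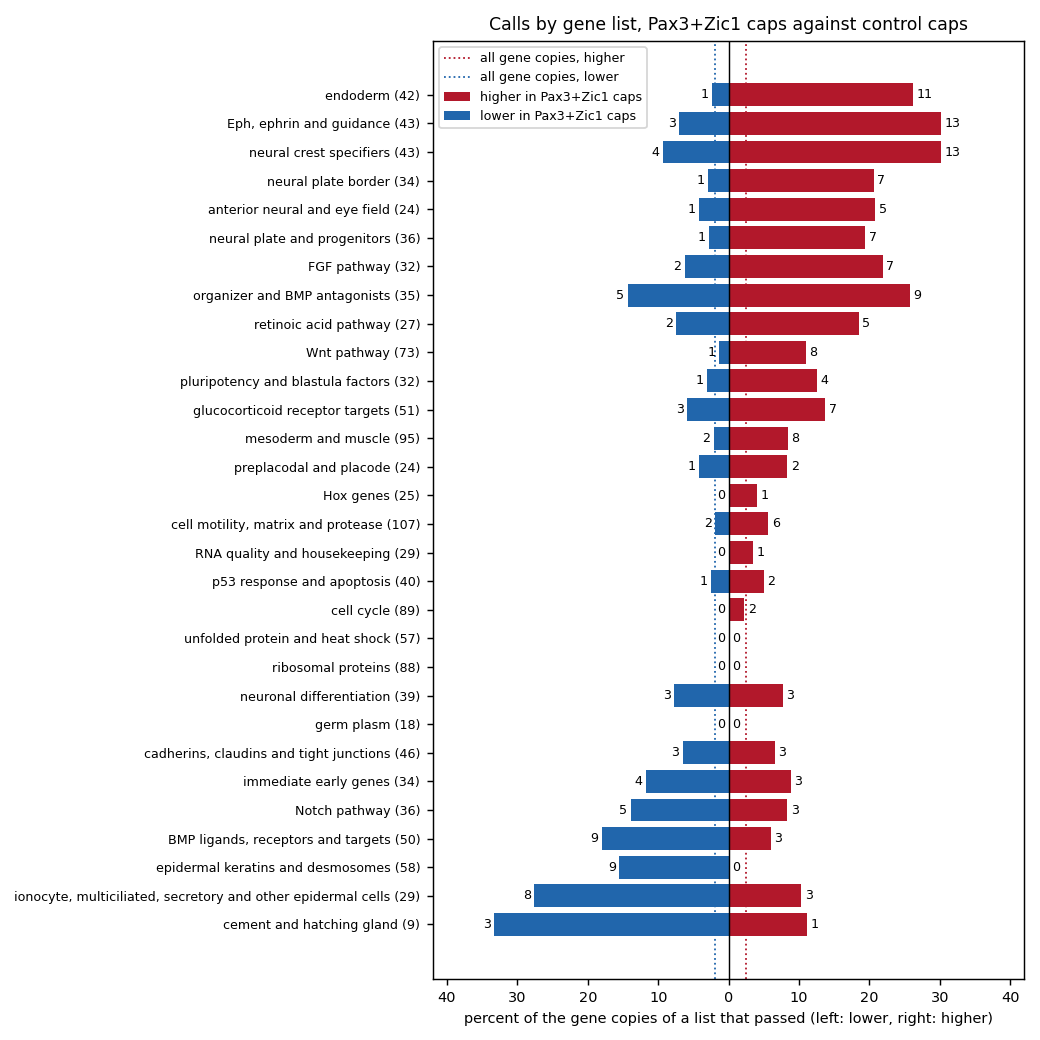
Bars give the percent of each list's gene copies that passed, to the right if higher in Pax3 and Zic1 caps than in control caps and to the left if lower, with the count at each bar's end and the list size in brackets; dotted lines mark the same for all 11303 gene copies (2.42% and 1.98%). Endoderm, guidance and crest lists reach furthest right, and the cement gland and specialised epidermal lists furthest left.

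The subgenome copies of a gene did not always pass together. Of 2009 genes measured in both copies, 93 had at least 1 copy higher and in 20 of them both were; in 62 of the other 73 the second copy had a change of the same sign. For falls, 75 genes had at least 1 copy lower, 10 had both, and in 50 of the other 65 the signs were the same. gsc, gata6, foxd3, foxa1, cldn5, flrt3 and zic2 rose in both copies, and szl, twsg1, ag1 and fgfr4 fell in both. In 2 genes the copies passed in opposite directions, id2 and slc25a24 (1.97 for slc25a24.L and -1.22 for slc25a24.S). Among gene copies with several probe sets, 96 had at least 1 higher and 22 of those had all higher; 122 had at least 1 lower and 37 had all lower. A second irx3.L probe set rose by 1.68 ± 0.34, and of 2 further arrdc2.S probe sets one rose by 3.53 ± 0.26 and one was at -0.17 ± 0.15. Probe sets that could detect RNA of both copies were not checked.

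Setting them against Pax3 caps, which had injection and dexamethasone too, asks what differs when Zic1 is added. With the block 363 probe sets passed (1.12%), 247 higher (0.759%) and 116 lower (0.356%) in Pax3 and Zic1 caps; without the block 6 passed. With the block and only these 2 groups in the fit 0 passed in limma, where 3304 had an unadjusted p under 0.05, and leaving out each replicate in turn gave 106 to 1011 calls, so every call in this comparison rests on the spread shared over the 5 groups. pax3.S was higher in Pax3 and Zic1 caps by 1.15 and 0.99 in its probe sets (adjusted p = 0.0261 and 0.0411), so the caps differed in that measure as well. The first was at adjusted p = 0.151 without Pax3 replicate 3, and its call held in 1 of 6 fits with a replicate left out. cldn5.L measured 6.52, 8.26 and 8.60 in Pax3 and Zic1 caps and 3.97, 3.72 and 3.88 in Pax3 caps, a difference of 3.93 ± 0.41 (adjusted p = 0.00221). glipr2.S measured 6.59, 7.77 and 7.41 in Pax3 and Zic1 caps and 2.88, 4.47 and 2.85 in Pax3 caps, a difference of 3.85 ± 0.22 (adjusted p = 3.8e-05). In both genes all Pax3 and Zic1 samples lay above all Pax3 samples. Against control caps glipr2.S fell in Pax3 caps (-1.12, adjusted p = 0.02) and rose in Pax3 and Zic1 caps (2.73). gata6.S (2.13 ± 0.29), inhbb.L (2.10 ± 0.24), col1a2.L (2.30 ± 0.26), ppp1r13l.L, which encodes an inhibitor of p53 (1.79 ± 0.17), and dusp5.S (1.60 ± 0.21) were higher in Pax3 and Zic1 caps as well and passed whichever sample was left out. The other copy, gata6.L, did not pass against Pax3 caps.

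Some crest and organizer genes differed too. snai1.S measured 7.06, 8.87 and 7.42 in Pax3 and Zic1 caps and 4.90, 7.65 and 6.03 in Pax3 caps, a difference of 1.59 ± 0.29 (adjusted p = 0.028; 0.157 without Pax3 replicate 3), and chrd.1.S differed by 1.41 ± 0.21 (adjusted p = 0.00996; 0.0664 without Pax3 replicate 2). The difference from Pax3 caps did not pass for foxd3.L (-0.19), tfap2b.L (-0.87), nog.L (0.79, adjusted p = 0.291), gsc.L (-0.47) or dbx1.S (1.49, adjusted p = 0.161). Lower in Pax3 and Zic1 caps than in Pax3 caps were irx1.S (-0.99 ± 0.11, adjusted p = 0.00305), sox2.L (-0.94, adjusted p = 0.0317), nrn1.S (-2.19, adjusted p = 0.0313), foxa1.L (-1.37, adjusted p = 0.0407) and the ionocyte gene foxi1.L (-1.38, adjusted p = 0.00976). Of these, irx1.S passed whichever sample was left out. Without Pax3 replicate 2 sox2.L, nrn1.S and foxi1.L were at adjusted p = 0.145, 0.144 and 0.0669, and without Pax3 replicate 3 foxa1.L was at 0.208. The nrn1.S call held in 0 of 6 fits with a replicate left out, those of sox2.L and foxa1.L in 1 each and that of foxi1.L in 3.

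**Figure D5:**
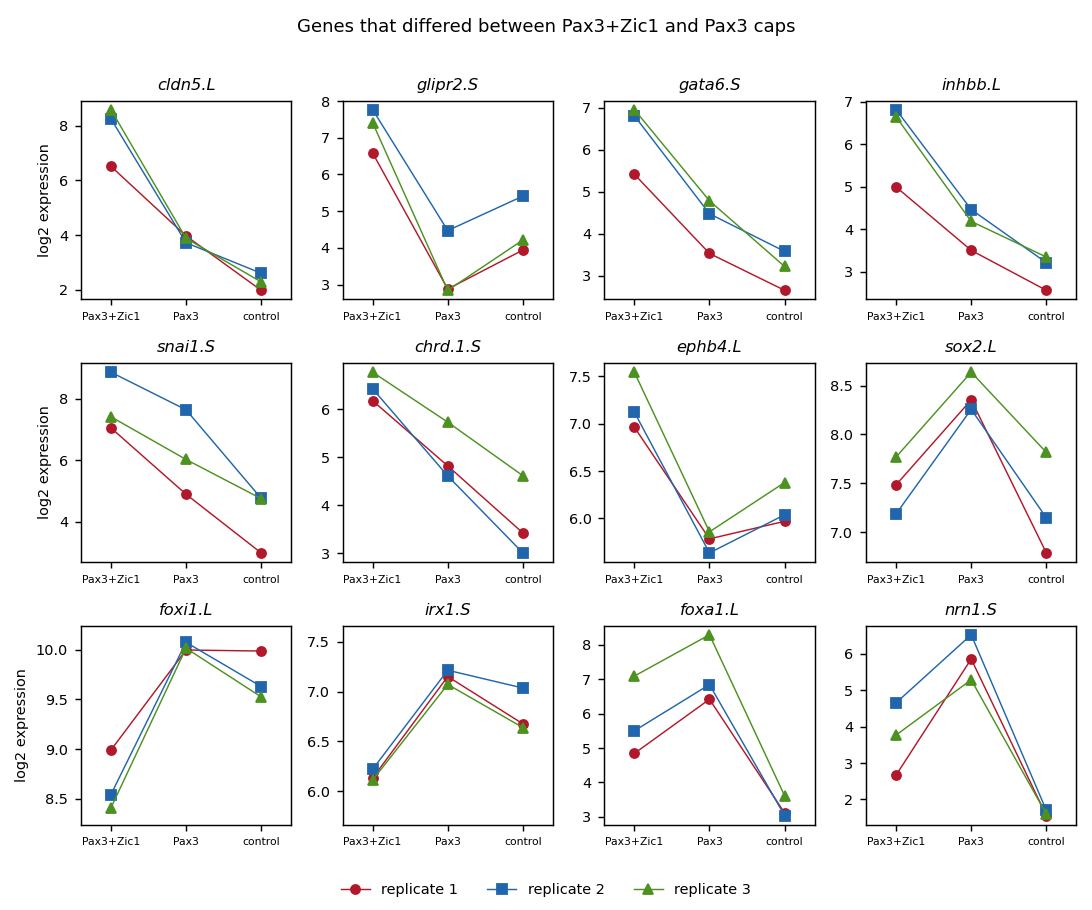
Log2 expression (y axis) of 12 genes whose level differed from that of Pax3 caps, chosen for display after their values were seen; each panel has Pax3 and Zic1 caps, Pax3 caps and control caps from left to right, 1 symbol per biological replicate, lines joining samples of one number. Pax3 and Zic1 caps are highest in cldn5.L, gata6.S, inhbb.L and chrd.1.S, and Pax3 caps are highest in sox2.L, irx1.S, foxa1.L and nrn1.S.

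The values of these comparisons share the control samples and are given side by side, with no test of likeness. Against control, dbx1.S was at 6.22 in Pax3 and Zic1 caps and 4.72 in Pax3 caps, and cldn5.L at 5.50 and 1.57. In the same order inhbb.L was at 3.11 and 1.01, snai1.S at 3.61 and 2.02, and nrn1.S at 2.08 and 4.26. In Pax3 caps cldn5.L and inhbb.L did not pass in limma (adjusted p = 0.0889 and 0.0606). The falls of hes5.7.L were -2.21 in Pax3 and Zic1 caps and -2.85 in Pax3 caps, those of itln1.L -2.58 and -2.55. Of 695 probe sets that passed between Pax3 caps and control caps (2.14%), 273 were higher (0.839%) and 422 lower (1.3%).

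Pax3 and Zic1 caps with cycloheximide, in which new protein synthesis is blocked, differed from control caps in 6159 probe sets (18.9%; 9.15% higher and 9.78% lower); the drug's own effect cannot be told apart there, since no control caps had it. Set beside the values without the drug, 10 of the rises, chosen after their values were seen, read as follows against control. With cycloheximide gsc.S was at 4.29 (4.40 without), dbx1.S at 5.05 (6.22), prdm12.L at 4.88 (4.45), nog.L at 3.33 (3.31), chrd.1.S at 3.75 (2.78), cldn5.L at 4.49 (5.50), foxd3.L at 3.23 (2.49), snai1.S at 5.95 (3.61), snai2.L at 3.09 (1.54) and tfap2b.L at 3.12 (2.71), each passing against control. Other genes did not: xa-1.L was at 0.97 with cycloheximide and 4.12 without, and col1a2.L at 0.08 and 1.63. Between Pax3 and Zic1 caps with and without cycloheximide (5344 probe sets passed, 16.4%, with 7.98% higher and 8.45% lower with the drug), xa-1.L was lower with the drug by 3.15 (adjusted p = 0.00507) and col1a2.L by 1.55 (adjusted p = 0.0035), snai1.S was higher by 2.34 (adjusted p = 0.000794) and snai2.L by 1.56 (adjusted p = 0.0101), and nog.L and gsc.S did not pass (0.02 and -0.11). Genes that fell without the drug also differed among themselves: with it ag1.L was at -4.00 against control (-1.86 without), itln1.L at -4.72 (-2.58), hes5.2.L at 0.50 (-2.01) and gadd45g.L at 2.55 (-1.63; its fall was at adjusted p = 0.117 without Pax3 and Zic1 replicate 2).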

How the data were processed

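The authors deposited 1 value per probe set and array, read here as log2 from its range. R 2.14.2 is named in the submitters' processing notes; no source used here gives the background correction, normalization or summary. Nothing was rescaled or filtered by level. Of 32635 probe sets 96 Affymetrix controls were left out; 15495 of the rest have 1 gene symbol in the platform annotation, 279 several and 16765 none. Symbols were updated by gene identifier from the RefSeq table of Xenopus_laevis_v10.1 (15384 found, 2 changed).

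The 5 groups were fitted together in limma 3.58.1 (R 4.3.3, lmFit, eBayes) with the biological replicate number as a block (residual degrees of freedom 8, prior 3.40), two-sided, with Benjamini-Hochberg adjustment over 32539 probe sets. The fit was also run on simulated data. Replicate effects were built into those data, so that run cannot show whether the block suits the real samples. The labels number biological replicates across groups. After group means were removed, samples of one number correlated at 0.428 to 0.864 across probe sets, and 15 of 15 samples correlated best with one of their own number. The correlations of Pax3 and Zic1 replicate 3 were the weakest, 0.428 to 0.511, where those of other samples were at least 0.605. No source used here says what samples of one number share, so p-values may measure technical spread.

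A gene copy's brightest probe set stood for it on 30 gene lists; 13 names matched by pattern alone were taken off after values were seen. Named genes are all pax3 and zic1 probe sets, the 15 largest rises and 15 largest falls that passed, up to 4 rises and 4 falls per list, a set of well-known genes whatever their call, and other copies of the largest. Those outside this (bmp4, slc25a24, foxi1.L, gata4.L, gata5.L) were named after their values were seen. Members and lists were chosen with earlier results of these data known.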

Additional observations from a re-analysis of the deposited data

How the results depend on the processing

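Counts depended most on the block, on the groups in the fit and on single samples. Without the replicate block, or with the block and only the groups compared, 160 or 147 probe sets passed against control caps (140 of the 147 are among the 1416), with 94 or 84 higher and 66 or 63 lower; of 137 named probe sets that passed, 36 or 40 did. Against Pax3 caps 6 passed without the replicate block and 0 in limma with only the groups compared, where 3304 had an unadjusted p under 0.05. With probe sets under the median level left out, 425 were higher than in control caps and 225 passed against Pax3 caps. Leaving out each replicate in turn gave 625 to 2343 calls against control caps (350 to 1191 higher, 275 to 1152 lower), 83 to 135 named probe sets and 106 to 1011 calls against Pax3 caps (1011 without Pax3 and Zic1 replicate 1, 106 without Pax3 replicate 3). Of the 137, 74 passed whichever replicate was left out. Array 2.1 or 2.2 alone, quantile normalization, median centring, and trend with robust priors moved none of these counts by over 1.5 times. The counts of list members with a replicate left out or without the block were added after seeing the data. Among named probe sets that had not passed, values near 0 changed sign: pax3.L was at -0.0026 with array 2.1 alone, sox3.L at -0.0246 and nr3c1.L at 0.0324 with array 2.2 alone, and twist1.L at -0.0233 after quantile normalization. With a replicate left out the lowest and highest changes were -0.3229 and 0.213, -0.104 and 0.2159, and -0.134 and 0.2812 for 3 pax3.L probe sets, -0.1143 and 0.7695 for sox9.S, -0.239 and 0.1651 for twist1.L, -0.1538 and 0.2201 for msx1.L, -0.2399 and 0.3203 for hes4.S, -0.3606 and 0.332 for sox3.L, -0.3611 and 0.1109 for dlx5.L, -0.2597 and 0.1118 for nr3c1.L, -0.014 and 0.2581 for nr3c1.S, -0.181 and 0.4212 for arrdc2.L, -0.4856 and 1.0935 for agr2.L, and -0.4515 and 0.2185 for hs3st1.S. The cause of these differences between settings was not tested.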
